A study of Homo sapiens with 9 samples.

Results

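Expression was compared between TC-71, a human Ewing sarcoma cell line, and the 3 lines derived from it by selection for resistance to agents against the type 1 insulin-like growth factor receptor (IGF-1R), taken as 1 group. A gene was counted as separated when the levels of all 3 resistant lines lay beyond the levels of all 3 TC-71 samples on the same side. Of 14181 genes tested, 1954 (13.8%) were separated, 1047 of them higher in the lines (7.38%) and 907 lower (6.4%). These genes were chosen by the same values that describe them, so the separation itself is a description and not a test. With 3 samples on each side, a share of genes separates by ordering alone when nothing differs. The count is not corrected for such genes.

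All 9 arrays of the study were used. The TC-71 group held 3 samples of the unselected line with 1 array each. TC/AEW had been exposed to rising concentrations of NVP-AEW541, an inhibitor of the receptor's kinase, up to 5 µM. For TC/AVE the agent was AVE1642, an antibody, with a top dose of 10 µg/ml. For TC/CP it was another antibody, figitumumab, with a top dose not given in the sources used here. Selection lasted 6 months in each case, and all cells were grown in Iscove medium with 10% serum. Each resistant line had 2 technical replicate arrays and no biological replicate, so its arrays were averaged into 1 sample. No TC-71 culture carried for the same months is named in the labels, so resistance and time in culture cannot be told apart. The arrays fall into 3 sets by their names. TC-71 sample 1 stands alone in the first, TC-71 sample 2 shares the second with TC/AEW and TC/AVE, and TC-71 sample 3 shares the third with TC/CP.

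IGF-1R is a receptor tyrosine kinase that binds IGF1 and IGF2 and passes its signal through the IRS adaptor proteins to the PI3K, AKT and mTOR pathway and to the RAS and ERK cascade. Ewing sarcoma carries a fusion of EWSR1 with an ETS factor, most often FLI1, and its cells are known to depend on IGF signalling. A kinase inhibitor blocks the enzyme inside the cell, while the antibodies bind the receptor outside it.

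The arrays were close in distribution, with medians from 5.39 to 5.45 on the log2 scale and between 13412 and 13774 genes at 5 or more. Values are log2 levels of 1 probe set per gene, and differences are on the same scale, lines minus TC-71. Levels of different genes are not compared. A level under 5 was treated as near background. The size of a difference that involves one is therefore uncertain, and such a difference is not turned into a fold. Values of the lines are printed in the order TC/AEW, TC/AVE, TC/CP, and those of TC-71 in the order of samples 1 to 3. Errors of means are SD (n = 3) and errors of differences are moderated standard errors from limma. All p-values reflect the spread between these few samples and no wider variation, and the number of arrays limits the precision. CD99, the surface protein used to diagnose Ewing sarcoma, was high in every sample, at 12.82 or more. FLI1 stood between 8.81 and 9.74 and EWSR1 between 10.72 and 11.11, with the groups overlapping in both. Of 13 measured Ewing sarcoma markers, 2 (15.4%) were separated above TC-71 and 2 (15.4%) below it, against 7.38% and 6.4% over all genes. Their median difference of 0.0144 ran from -0.0809 without TC/AEW to 0.121 without TC/CP. Of 18 blood and immune cell markers, 5 passed the filter, and 4 of these were not separated.

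The separated genes differed from TC-71 by modest amounts. Their median absolute difference was 0.406, against a median range of 0.24 among the lines and 0.331 among the TC-71 samples. Differences of at least 2-fold were found for 177 of them, 121 higher (0.853% of genes tested) and 56 lower (0.395%). In 40 of the 177 each line also stood 2-fold or more from the TC-71 sample of its own array set. Only 112 separated genes had a gap of 0.5 or more between the nearest line and the nearest TC-71 sample, and 18 had a gap of 1 or more. TC/AVE was the line farthest from TC-71 in 890 of the separated genes (45.5%), TC/CP in 607 (31.1%) and TC/AEW in 457 (23.4%). TC-71 sample 2 was the sample nearest to the lines in 846 (43.3%), sample 3 in 724 (37.1%) and sample 1 in 384 (19.7%). With every array centred on its median, the share of separated genes that were higher moved from 53.6% to 42.2%, so the balance of higher against lower depends on the scaling. Requiring all 6 line arrays, and not their means, to lie beyond TC-71 left 725 genes higher (5.11%) and 605 lower (4.27%).

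The border of the rule ran through genes that differed by similar amounts. Among genes at least 2-fold apart, the ETS factor ELK3, the transcription factor MEF2C and the ciliary protein IFT27 lay just inside, with gaps of 0.0043, 0.018 and 0.0395. TRIM9, SPHK1, which makes sphingosine 1-phosphate, and IFIT1 lay just outside, with gaps of -0.0052, -0.0078 and -0.0179, where a value under 0 is an overlap.

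Differences in level were tested for every gene with limma and Benjamini-Hochberg adjustment. The adjusted p was under 0.05 for 3 genes (0.0212% of those tested), COL16A1, HSD17B2 and DACT2, which all fell in the lines. At an unadjusted p under 0.05 there were 1187 genes (8.37%), where 5% would be reached if no gene differed.

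COL16A1 encodes a collagen that associates with fibrils. It read 8.88, 7.81 and 8.32 in the TC-71 samples and 5.42 in TC/AEW, 5.26 in TC/AVE and 5.35 in TC/CP. The lines lay within 0.2 of each other and at least 2.39 under the lowest TC-71 sample. The fall was 2.99 ± 0.26 (limma, adjusted p = 0.0359), which is 7.96-fold, and against the TC-71 sample of the same array set it was -2.39, -2.55 and -2.97 for the respective lines. HSD17B2 encodes the enzyme that oxidises estradiol and testosterone. Its levels were 6.84, 6.88 and 7.52 in TC-71, and 4.03, 4.41 and 4.45 in the 3 lines, all near background. The fall was 2.78 ± 0.22 (limma, adjusted p = 0.0322), and its size is uncertain because the lines were near background. DACT2, a member of a family that regulates WNT and TGF-beta signalling, read 7.50, 7.44 and 7.60 in TC-71, the tightest TC-71 values of the 3 genes. The lines stood at 6.02, 5.75 and 5.88, well apart from them, and the fall of 1.63 ± 0.13 was 3.09-fold (limma, adjusted p = 0.0322).

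None of the 3 calls held when the array set was a block (limma, adjusted p = 0.133 for COL16A1 and HSD17B2 and 0.134 for DACT2), although the blocked differences were -2.69, -2.83 and -1.62. Without any 1 of the 6 samples no gene passed, with adjusted p from 0.0529 to 0.212 for COL16A1, from 0.0732 to 0.161 for HSD17B2 and from 0.0855 to 0.161 for DACT2, and 836 to 1731 genes at an unadjusted p under 0.05.

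**Figure D1:**
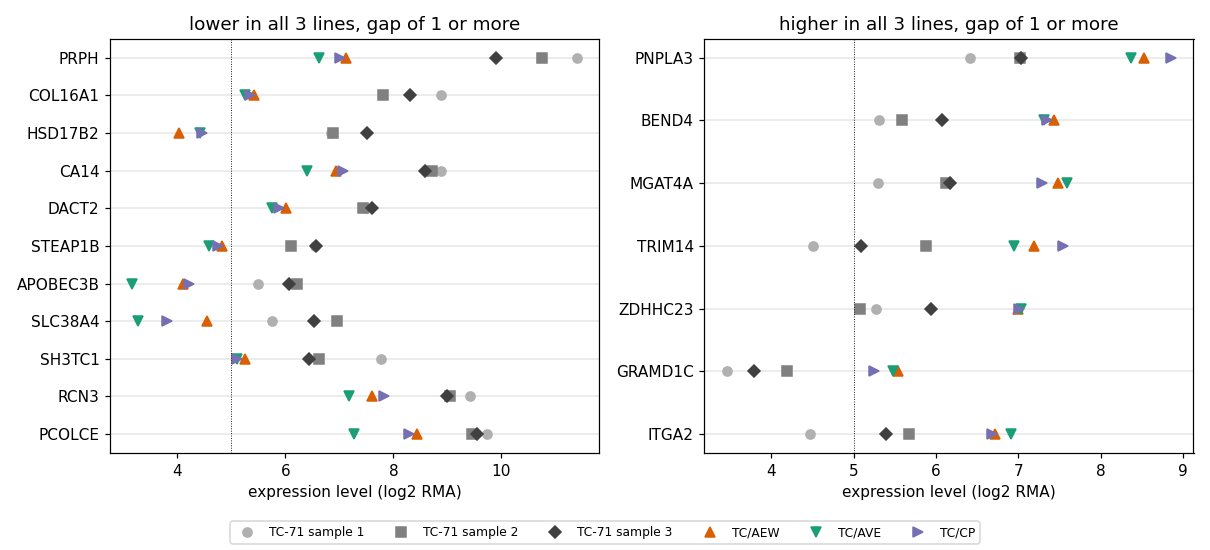
Log2 level of the 18 genes whose gap between the nearest line and the nearest TC-71 sample was 1 or more, by sample; grey symbols are the 3 TC-71 samples, coloured triangles the 3 resistant lines, and the dotted line marks 5, under which a level is near background. In COL16A1 the lines sit between 5.26 and 5.42 and TC-71 between 7.81 and 8.88, and no gene shown has an overlap.

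A further 8 genes were lower in the lines with a gap of at least 1, and none of them passed the threshold. PRPH encodes peripherin, an intermediate filament of peripheral neurons, and had the largest difference of all separated genes. Its TC-71 levels were 11.40, 10.75 and 9.90, and the lines stood at 7.12, 6.61 and 7.01. The lines were thus tight while TC-71 spread over 1.5, and the difference was -3.77 ± 0.36 (limma, adjusted p = 0.0526). PRPH has 1 kept probe set, and limma called it under 7 of the alternatives (a filter at 6, the mean of probe sets with an adjusted p of 0.0386, no _x_at or _s_at probe sets, median centring, quantile normalization, an intensity trend and 9 arrays). It was not called with no filter, with array set as a block or without any 1 sample. CA14, a carbonic anhydrase of the cell surface, read 8.87, 8.71 and 8.59 in TC-71 and 6.94, 6.40 and 7.07 in the 3 lines. RCN3, a calcium-binding protein of the endoplasmic reticulum, read 9.41, 9.05 and 9.0 against 7.60, 7.17 and 7.82. PCOLCE, which speeds the trimming of procollagens, read 9.74, 9.46 and 9.55 against 8.43, 7.27 and 8.29. In these 3 genes TC/AVE was the lowest sample, and the differences were -1.92, -1.62 and -1.59. STEAP1B, related to a metalloreductase, stood at 4.82, 4.59 and 4.74, near background, against TC-71 levels of 6.10 to 6.56 (-1.68 ± 0.17, limma, adjusted p = 0.0526). APOBEC3B, a DNA cytidine deaminase, and SLC38A4, an amino acid transporter, were also near background in every line, from 3.17 to 4.55. SH3TC1 was tight in the lines, at 5.26, 5.11 and 5.11, and ran from 6.44 to 7.77 in TC-71. Its 2 kept probe sets did not match, with differences of -1.78 and -0.0955.

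The genes higher in the lines with a gap of at least 1 were 7, and none passed the threshold. PNPLA3 encodes a lipase of lipid droplets and read 6.41, 7.02 and 7.03 in TC-71. It stood at 8.52 in TC/AEW, 8.37 in TC/AVE and 8.86 in TC/CP, a difference of 1.76 ± 0.22 (limma, adjusted p = 0.128). BEND4 was within 0.2 in the lines, at 7.43, 7.31 and 7.34, above TC-71 levels of 5.31, 5.59 and 6.07. ZDHHC23, a palmitoyltransferase, showed the least spread among the lines, at 7.0, 7.03 and 7.0, and read 5.27, 5.08 and 5.93 in TC-71. MGAT4A, which adds branches to N-glycans, read 7.47, 7.59 and 7.28 against 5.30, 6.12 and 6.17. TRIM14, an adaptor of antiviral signalling, read 7.18, 6.95 and 7.54 against 4.51, 5.88 and 5.09. ITGA2, the alpha chain of a collagen receptor, read 6.71, 6.90 and 6.68 against 4.47, 5.67 and 5.39. Differences of the kept probe sets ran from 0.432 to 2.07 for TRIM14, from 0.572 to 1.59 for ITGA2 and from 1.68 to 1.76 for PNPLA3. TC-71 sample 1 was the lowest sample for TRIM14, ITGA2, MGAT4A, PNPLA3 and BEND4. GRAMD1C, which moves cholesterol between membranes, was near background in TC-71 (3.46, 4.19 and 3.79) and read 5.54, 5.48 and 5.25 in the lines.

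The genes with the largest moderated statistic among the higher ones included several with smaller but even differences. HOMER2, a scaffold of synapses, read 6.16, 6.39 and 6.20 in TC-71 and 7.37, 7.99 and 7.61 in the 3 lines. OXR1, which protects against oxidative damage, read 8.72, 8.81 and 8.85 against 9.59, 9.58 and 9.65. SLC35F1 read 7.23, 7.43 and 7.47 against 8.25, 8.23 and 8.19. In OXR1 and SLC35F1 the 3 lines differed by less than 0.1 while the step from TC-71 was 0.81 ± 0.12 and 0.85 ± 0.12. BACE2, a membrane protease, stood 1.68 ± 0.25 higher and CMTM8 1.71 ± 0.26 higher. Among the lower genes KRT18, an epithelial keratin, stood at 5.88, 5.79 and 5.65 against TC-71 levels of 6.69 to 7.02, and ZCCHC24 stood 1.00 ± 0.14 lower. KRT18 was the only separated member among 8 measured epithelial and endothelial markers. In 4 of these 8 the mean of the lines exceeded that of TC-71. The median difference of this list, 0.0302, changed sign under 3 of 10 alternatives.

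Other large differences were separated but uneven between the lines. ENPEP, the surface enzyme aminopeptidase A, read 9.42, 9.62 and 9.89 in TC-71, 8.38 in TC/AEW and 8.50 in TC/CP, but 5.45 in TC/AVE. SOX11, a transcription factor of neural development, read 10.35, 9.38 and 10.33 in TC-71 and 9.06, 5.73 and 9.0 in the lines. LGALS1, a secreted galectin, read 10.58, 11.36 and 10.42 against 9.90, 7.37 and 9.49. The same order, with TC/AVE lowest, was seen for NPTX2, a neuronal pentraxin (6.87, 4.22 and 5.90 against 7.87 to 8.42 in TC-71), and for SLC7A2, a transporter of cationic amino acids (7.09, 5.14 and 6.95 against 7.88 to 8.40). The lines' SD of these 5 genes ran from 1.09 to 1.90, above the TC-71 SD of 0.23 to 0.55. PGF, a growth factor of blood vessels, had another order. TC/AEW was lowest at 6.01 and the other lines read 7.24 and 7.18, against TC-71 levels of 7.95 to 9.45. The 2 kept probe sets of PGF differed by -1.76 and -0.129. On the higher side, SCG2, a granin of secretory granules, read 7.57, 9.22 and 8.38 in TC-71 and 10.00, 10.61 and 11.63 in the 3 lines. PRKD1, protein kinase D1, stood 2.12 ± 0.39 higher, with lines at 6.66, 7.92 and 7.61 and TC-71 at 4.68, 5.39 and 5.77. MLKL, the effector of necroptosis, read 6.64, 6.94 and 7.70 in the lines, while TC-71 sample 3 at 5.68 was above the near-background samples 1 and 2 at 4.36 and 4.26. MBD3L2 was barely separated, since TC/AVE at 8.68 lay 0.14 above TC-71 sample 2 at 8.53, while TC/AEW and TC/CP read 11.28 and 10.12. None of these genes passed the threshold.

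**Figure D2:**
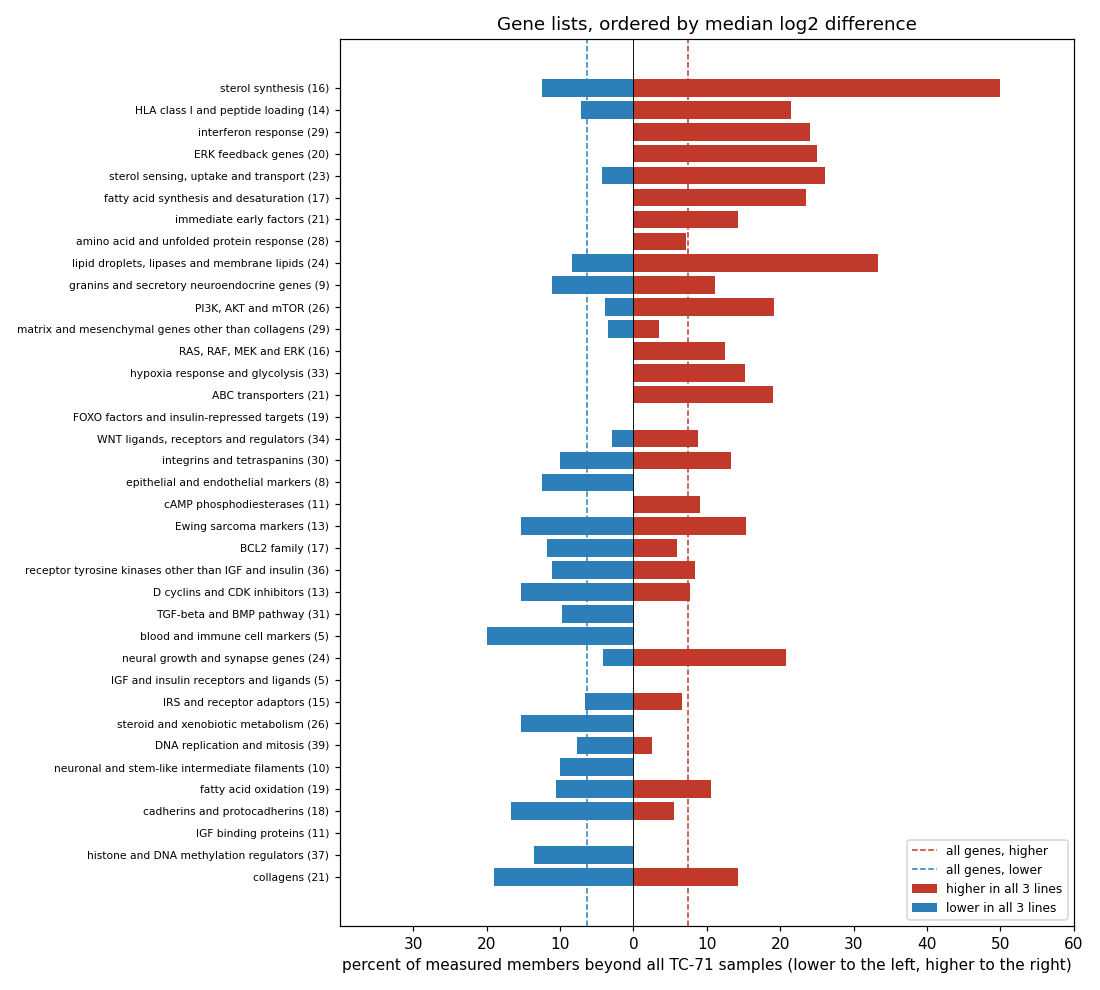
Percent of the measured members of each of 37 gene lists (number measured in brackets) whose 3 line levels lay above all TC-71 samples (red, to the right) or below them (blue, to the left), ordered by the list's median log2 difference. Dashed lines give the shares over all genes, 7.38% and 6.4%; 8 of the 16 sterol synthesis genes (50%) were higher, and no member of the IGF receptor, IGF binding protein and FOXO lists was separated.

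The pathway the agents act on was examined from the receptor downward. None of the 5 measured IGF and insulin receptors and ligands was separated, and none of the 11 measured IGF binding proteins. Over all genes 13.8% were separated on either side, so few would be in lists of this size. In both lists limma called 0 genes, and 0 had an unadjusted p under 0.05. IGF1R read 9.25, 9.40 and 9.26 in TC-71 and 9.18, 9.58 and 8.99 in the 3 lines, so the lines lay on both sides of TC-71. INSR, the insulin receptor, spanned 5.76 to 6.47 in TC-71 and 6.0 to 7.19 in the lines. IGF1 read 6.32 to 6.70 in TC-71 and 5.85 to 6.96 in the lines. IGFBP5, which binds the ligands, read 6.47 to 7.07 in TC-71 and 6.37 to 7.83 in the lines. IGFBP3 was at or near background, from 4.57 to 5.11.

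Of 15 measured IRS and receptor adaptors, 1 was separated on each side (6.67%), near the 7.38% above and 6.4% below over all genes. IRS2, a main adaptor of the receptor, read 12.08, 11.92 and 12.05 in TC-71 and 11.86, 11.66 and 11.17 in the lines, a difference of -0.46 ± 0.19. GRB14, an adaptor that inhibits the insulin receptor, was near background in TC-71 at 3.32 to 3.63 and in TC/AEW and TC/CP at 4.55 and 4.04, and reached 5.43 in TC/AVE. IRS1 read 6.32 to 7.54 in TC-71, a range that held all 3 lines. Of 26 measured PI3K, AKT and mTOR genes, 5 (19.2%) were separated above TC-71 and 1 (3.85%) below it. PIK3CB, a catalytic subunit of PI3K, read 6.98, 7.70 and 7.55 in TC-71 and 8.09, 8.34 and 8.07 in the lines. PIK3CD, another catalytic subunit, read 6.07, 6.26 and 6.13 against 7.11, 6.85 and 6.62. Its probe sets did not run the same way, with differences from -0.294 to 0.706. DEPTOR, an inhibitor within mTOR complexes, read 8.31 in TC/AEW and 6.76 and 6.80 in the antibody-selected lines, the latter just above TC-71 sample 2 at 6.59. EIF4EBP2, a brake on translation that mTOR releases, was lower, at 9.15, 8.86 and 8.94 against 9.88, 9.41 and 9.81. The median of this list was 0.101 (16 of 26 higher), against -0.00533 over all genes, and it was 0.0256 without TC/CP and 0.166 without TC/AEW. None of the 19 measured FOXO factors and insulin-repressed targets was separated, against 13.8% over all genes (0 called by limma, 1 at an unadjusted p under 0.05).

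In the ERK branch the cascade itself showed no settled shift. Of 16 measured RAS, RAF, MEK and ERK genes 11 were higher, 2 (12.5%) were separated above TC-71 and none below, against 49.1% higher and 7.38% separated above over all genes. The median of 0.0873 was 0.0038 without TC-71 sample 1, 0.144 without TC/AVE, 0.028 with a filter at 6 and -0.00087 with array set as a block. Of 20 measured genes that ERK induces as feedback 17 were higher and 5 (25%) separated above TC-71, with none below and a median of 0.293. Limma called 0 genes in both lists, with 2 cascade and 3 feedback genes at an unadjusted p under 0.05. The feedback list's median level relative to the TC-71 mean was -0.0824, -0.0386 and 0.145 in the TC-71 samples and 0.221, 0.197 and 0.687 in the 3 lines, so TC/CP stood farthest out. ETV5, an ETS factor induced by ERK, read 9.87, 9.93 and 9.60 in the lines and 7.44, 9.37 and 8.51 in TC-71, whose sample 1 was low. IER3, an immediate early survival gene, read 8.57, 7.82 and 8.64 against 6.70, 7.50 and 7.40. MYC read 12.96, 12.73 and 12.62 against 12.37, 12.46 and 12.21, a small but separated difference of 0.42 ± 0.14. SPRY4, an inhibitor of ERK signalling, was high in 1 line alone, at 8.42 in TC/CP against 5.85 and 5.47 in TC/AEW and TC/AVE, and was not separated. Of 21 measured immediate early factors 18 were higher and 3 separated. FOSL1, a subunit of AP-1, read 6.15, 6.13 and 7.96 in the 3 lines and 5.44 to 5.71 in TC-71. The share of immediate early genes separated above TC-71 was 14.3%. Without TC-71 sample 2 the median of the immediate early list, 0.22, was 0.122.

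Other receptor tyrosine kinases went in both directions. Of 36 measured, 3 (8.33%) were separated above TC-71 and 4 (11.1%) below it, against 7.38% and 6.4% over all genes. The median of -0.019 changed sign under 3 of 10 alternatives. ALK, a receptor of neural development, read 6.23, 6.20 and 6.51 in TC-71 and 5.59, 5.36 and 5.20 in the lines (-0.93 ± 0.16, limma, adjusted p = 0.204). PDGFRB, a PDGF receptor, read 7.86, 7.55 and 7.49 against 6.64, 6.68 and 6.58, with little spread among the lines. FGFR4, MERTK and RYK were the higher ones, by 0.84, 0.82 and 0.73, though the probe sets of FGFR4 ran from 0.0479 to 0.841. EPHA7 and PTK7 stood 0.86 and 0.51 lower.

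Cholesterol is made from acetyl-CoA by a chain of enzymes whose genes are switched on by SREBF2 when membranes hold little sterol, and INSIG1 holds SREBF2 back when sterol is ample. Of 16 measured sterol synthesis genes 13 were higher in the lines, 8 were separated above TC-71 and 2 below it, and the median difference was 0.355. Over all genes the shares were 49.1% higher, 7.38% separated above and 6.4% below, with a median of -0.00533. The list's median level relative to the TC-71 mean was 0.0321, -0.00121 and -0.024 in the TC-71 samples and 0.324, 0.474 and 0.265 in the 3 lines, with TC/AVE highest. Against the TC-71 sample of the same array set the median was 0.272, 0.337 and 0.297. Of this list limma called 0 genes, and 10 had an unadjusted p under 0.05.

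HMGCS1, the enzyme that makes HMG-CoA early in the chain, read 9.77, 9.78 and 10.14 in TC-71 and 10.92, 11.41 and 10.80 in the 3 lines, 1.15 ± 0.20 higher. MSMO1, a sterol oxidase late in the chain, read 10.90, 10.93 and 11.26 against 11.89, 12.25 and 11.86. SQLE, which oxidises squalene, read 12.49, 12.28 and 12.55 against 12.83, 13.13 and 12.94. In each of these TC/AVE was the highest sample. SC5D, a late desaturase, stood 0.60 higher and DHCR7, the last reductase, 0.74 higher, though TC/CP exceeded TC-71 sample 1 by only 0.05 in DHCR7. FDPS, NSDHL and ACAT2 were separated with differences of 0.32 to 0.39. The 2 members separated below TC-71 belong to the mevalonate arm, in which HMGCS1 and FDPS were separated above it. MVK and MVD, of the same arm, differed by 0.05 and 0.07 and were not separated. PMVK, which phosphorylates phosphomevalonate, read 9.18, 9.19 and 9.14 in TC-71 and 8.86, 8.46 and 8.76 in the lines. IDI1, which isomerises isopentenyl diphosphate, stood 0.36 lower, but the mean of its probe sets stood 0.186 higher, so it has no settled direction.

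Of 23 measured genes of sterol sensing, uptake and transport, 6 (26.1%) were separated above TC-71 and 1 (4.35%) below it. Over all genes the shares were 7.38% and 6.4%. GRAMD1C, counted among the 6, passed the filter on low values only through arrays of the lines. INSIG1 read 9.40, 9.63 and 10.04 in TC-71 and 10.96, 11.48 and 10.62 in the lines, 1.33 ± 0.26 higher. STARD4, a carrier of cholesterol in the cytosol, read 7.87, 8.67 and 8.41 against 9.11, 9.69 and 9.17. SREBF2 itself stood 0.34 ± 0.16 higher with a gap of only 0.04. APOE, the lipid carrier, was the member below TC-71, at 6.75, 7.32 and 6.55 against 7.49, 7.92 and 7.65. The median of this list was 0.277, and it was 0.0898 with array set as a block, 0.155 without TC/AVE and 0.175 without TC-71 sample 1.

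Fatty acid and membrane lipid genes were also found on the higher side. Of 17 measured fatty acid synthesis and desaturation genes 14 were higher and 4 (23.5%) separated above TC-71, against 7.38% over all genes. None was separated below TC-71, and the median was 0.266. ACSL1 and ACSL4, which activate long-chain fatty acids, read 8.04, 8.81 and 7.58 and 6.98, 6.95 and 7.42 in the lines, against TC-71 levels of 5.75 to 7.42 and 5.35 to 6.42. SCD, the desaturase that makes oleic acid, differed by 0.27. Of 24 measured lipid droplet, lipase and membrane lipid genes 8 (33.3%) were separated above TC-71 and 2 (8.33%) below it, against 7.38% and 6.4% over all genes. Besides PNPLA3, the higher members included SGMS1 and SGMS2, which make sphingomyelin, UGCG, which makes glucosylceramide, PLSCR4, a scramblase, and PLA2G4A, a phospholipase that frees arachidonic acid. SGMS2 and PLSCR4 were near background in every TC-71 sample, at 3.04 to 4.20 and 3.53 to 3.95. Both passed the filter on low values only through arrays of the lines, so the filter favoured counting them as higher. UGCG read 8.91, 8.92 and 9.35 in the lines and 7.91 to 8.42 in TC-71. LIPI, a lipase known for its high level in Ewing sarcoma, went the other way, at 5.82, 5.23 and 5.33 against 7.09, 6.48 and 7.45. Of 19 measured fatty acid oxidation genes 6 were higher, with 2 (10.5%) separated on each side. Their median was -0.0944, or -0.202 with array set as a block. PPARA, a factor that turns on fatty acid oxidation, stood 0.87 ± 0.21 higher and ACAA2, a thiolase of mitochondria, 1.24 ± 0.50 lower, down to 7.51 in TC/AVE.

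**Figure D3:**
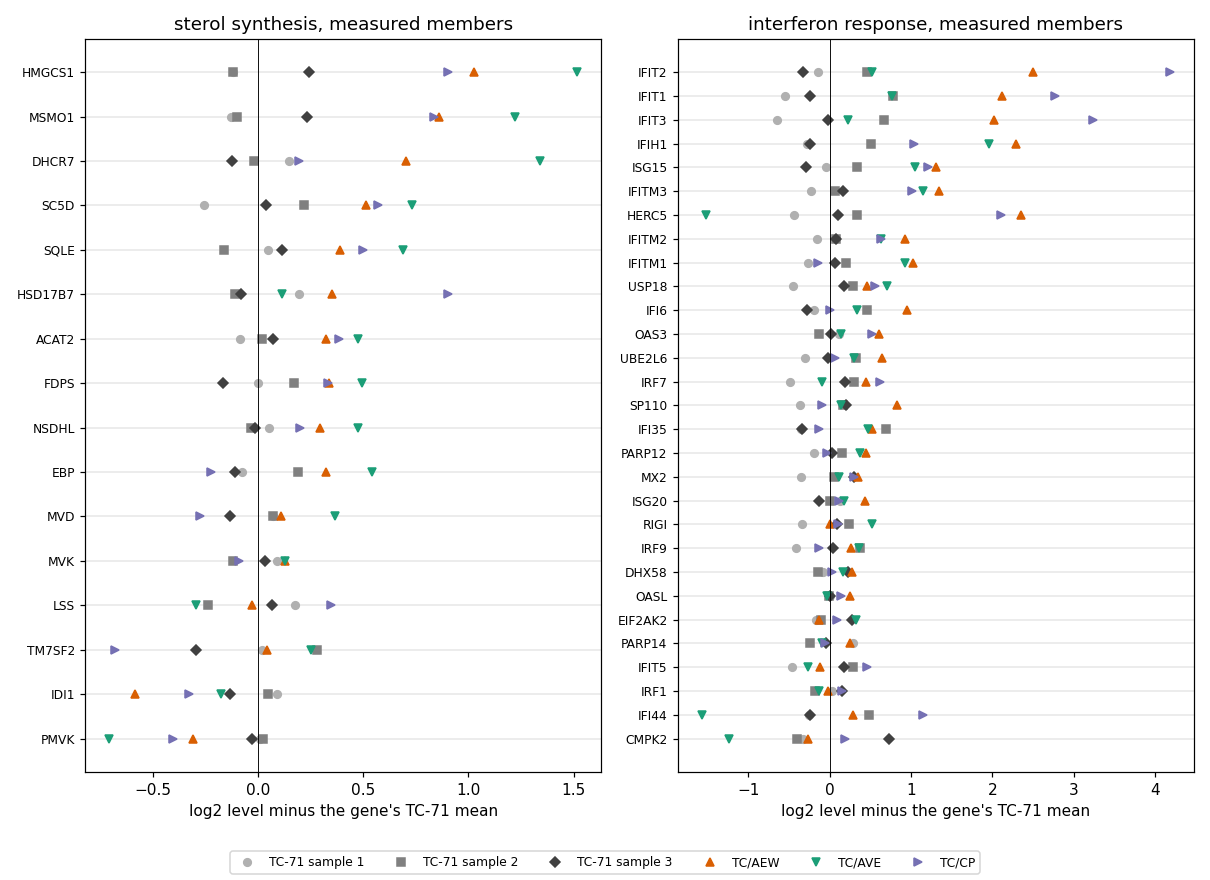
Log2 level minus the gene's TC-71 mean for the 16 measured sterol synthesis genes (left) and 29 measured interferon-response genes (right), by sample; grey symbols are TC-71 samples and coloured triangles the resistant lines. In HMGCS1 and MSMO1 all 3 lines lie to the right of TC-71 with TC/AVE farthest, while in IFIT2 TC/CP and TC/AEW lie far out and TC/AVE lies 0.06 above TC-71 sample 2.

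Interferon-response genes are switched on by STAT and IRF factors, which bind an element with repeated GAAA cores in their promoters. Of 48 listed genes 29 passed the filter on low values. Of these 26 were higher in the lines and 7 (24.1%) separated above TC-71, against 7.38% over all genes. The 7 were IFIT2, IFIH1, ISG15, IFITM3, IFITM2, USP18 and OAS3, and no member was separated below TC-71. The median difference of the 29 was 0.295, and limma called 0 of them, with 9 at an unadjusted p under 0.05. The list's median level relative to the TC-71 mean was -0.271, 0.242 and 0.0419 in TC-71 and 0.459, 0.298 and 0.19 in the 3 lines. TC-71 sample 2 thus stood above TC/CP, and the groups overlap at the level of the list. Within array sets the medians were 0.424, 0.0607 and 0.247. With array set as a block the list median was 0.124, and without TC-71 sample 1 it was 0.178. With no filter on low values it was 0.155.

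Promoters were taken from RefSeq (assembly GRCh38.p14), 250 bases before to 50 after each start. The element was searched on both strands as GAAA, then 2 bases of any kind, then GAAA. It was found in 15 of the 22 measured interferon-response genes with a promoter in the table (68.2%). The share was 3.68% of the 11311 tested genes with one and 4.38% of all 27305 genes with one. Genes of this list are known to be switched on through the element, so its share describes the list and not the lines. The element was present in 4 of 4 genes separated above TC-71 (IFIH1, ISG15, OAS3 and IFITM3) and in 11 of the 18 others. The stretches of these 4 promoters around the element are shown, from 30 bases before the first match, because these are the separated genes of the list with a promoter in the table. Capitals mark the matches, on either strand, and overlapping matches run together. IFIH1 and OAS3 each hold 1 further match outside the stretch shown. The IFIH1 stretch is chr2:162318754-162318873 on the minus strand, ISG15 is chr1:1013354-1013429 on the plus strand, OAS3 is chr12:112938301-112938420 on the plus strand and IFITM3 is chr11:320861-320942 on the minus strand.
IFIH1: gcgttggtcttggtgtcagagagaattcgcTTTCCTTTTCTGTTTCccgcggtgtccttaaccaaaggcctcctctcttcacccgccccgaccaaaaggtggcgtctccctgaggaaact
ISG15: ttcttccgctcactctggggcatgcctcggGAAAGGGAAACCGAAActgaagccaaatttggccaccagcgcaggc
OAS3: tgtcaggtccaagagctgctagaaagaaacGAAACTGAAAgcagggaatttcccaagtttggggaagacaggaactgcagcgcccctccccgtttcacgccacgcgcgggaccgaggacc
IFITM3: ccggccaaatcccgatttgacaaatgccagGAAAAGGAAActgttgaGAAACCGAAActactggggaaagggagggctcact

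IFITM3, a membrane protein that blocks virus entry, read 9.50, 9.80 and 9.89 in TC-71 and 11.08, 10.87 and 10.75 in the 3 lines, 1.17 ± 0.16 higher (limma, adjusted p = 0.16). ISG15, a ubiquitin-like modifier, read 9.53, 9.91 and 9.28 against 10.88, 10.62 and 10.79. Both were even across the lines, each at least 0.71 above its highest TC-71 sample. IFIH1, a sensor of double-stranded RNA, was near background in TC-71 at 3.82 to 4.61 and read 6.39, 6.06 and 5.14 in the lines. It passed the filter on low values only through arrays of the lines. OAS3, an activator of RNA decay, lay at the edge, with TC/AVE at 5.63 and TC-71 sample 1 at 5.60. The IFIT genes were uneven. IFIT2 read 8.15 in TC/AEW and 9.84 in TC/CP but 6.18 in TC/AVE, where TC-71 ran from 5.33 to 6.12. IFIT1 and IFIT3 had the same order of lines and were not separated, since TC/AVE lay under TC-71 sample 2. HERC5, a ligase of ISG15, read 7.91 and 7.68 in TC/AEW and TC/CP and 4.06 in TC/AVE, below all TC-71 samples.

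Of 14 measured genes of HLA class I and peptide loading 12 were higher, with a median of 0.339. Above TC-71 3 (21.4%) were separated and below it 1 (7.14%), against 7.38% and 6.4% over all genes. HLA-C read 10.22, 9.38 and 8.66 in the 3 lines and 8.42 to 8.63 in TC-71, so TC/CP was barely beyond it. B2M, the common light chain, read 13.24, 13.45 and 13.26 against 12.80, 13.14 and 12.88. TAP1, a peptide transporter, read 6.88, 7.10 and 6.08 against 5.72, 6.07 and 6.03. Without TC/AVE the list median was 0.223.

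The sterol regulatory element TCACNCCAC, also searched on both strands, was found in 1 of 34 measured sterol genes with a promoter in the table (2.94%). Only matches to these letters, with N as any base, in the same promoter span were counted. Sites with other letters or farther away were not looked for. The share was 1.5% of tested genes with a promoter and 1.39% of all genes with one. The sterol gene with the element was SREBF2. Its promoter stretch at chr22:41832942-41833010 on the plus strand is shown as the counterpart to the interferon genes.
SREBF2: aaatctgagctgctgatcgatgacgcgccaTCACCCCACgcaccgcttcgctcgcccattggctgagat

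Matrix and adhesion genes stood on both sides of TC-71. Of 21 measured collagens 3 (14.3%) were separated above TC-71 and 4 (19%) below it, against 7.38% and 6.4% over all genes. Their median of -0.157 had no settled direction (-0.253 without TC/CP, 0.0079 without TC/AVE and 0.00804 with array set as a block). Besides COL16A1, COL5A1, a chain of fibrillar type V collagen, stood 0.83 ± 0.22 lower, at 6.93, 7.01 and 6.83 against 8.07, 7.26 and 7.93. Its partner chain COL5A2 stood 0.87 ± 0.26 higher, at 10.86, 11.15 and 11.28 against 9.72, 10.71 and 10.26. COL21A1 stood 0.72 lower, while COL13A1 and COL27A1 stood 0.74 and 0.66 higher. Probe sets ran from 0.0966 to 0.737 for COL13A1 and from -0.0817 to 0.845 for COL27A1. Among 30 measured integrins and tetraspanins 4 (13.3%) were separated above TC-71 and 3 (10%) below it. ITGA4, ITGAV and ITGA2, integrin alpha chains, were higher by 0.91, 0.78 and 1.59, and TC-71 sample 1 was the lowest sample in each.

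Of 26 measured steroid and xenobiotic metabolism genes none was separated above TC-71 and 4 (15.4%) were below it, against 7.38% and 6.4% over all genes. Besides HSD17B2 these included CYP3A5, a drug-metabolising cytochrome, which read 5.59, 5.65 and 5.45 in TC-71 and 4.19, 4.19 and 4.53, near background, in the lines (limma, adjusted p = 0.112). HSD17B2 and CYP3A5 passed the filter on low values only through TC-71 arrays, so the filter favoured counting them as lower. Of 37 measured histone and DNA methylation regulators none was separated above TC-71 and 5 (13.5%) were below it, with a median of -0.144 (-0.0784 without TC/AVE and -0.0812 without TC-71 sample 3). DNMT3A and DNMT3B, which set new DNA methylation, read 7.88, 7.19 and 8.07 and 7.54, 7.28 and 7.57 in the lines, against TC-71 levels of 8.43 to 8.64 and 7.85 to 7.94. EZH2 and HDAC2 stood 0.22 and 0.31 lower. Of 31 measured TGF-beta and BMP genes 3 were below TC-71 (9.68%, near the 6.4% over all genes) and none above. SMAD9, a BMP signal carrier, read 9.12, 9.72 and 8.57 in the lines and 10.01 to 10.07 in TC-71. BOK, a killer protein of the BCL2 family, stood 1.53 ± 0.33 lower, and BCL2, which blocks cell death, stood 0.72 ± 0.32 higher with a gap of only 0.01 and probe sets from -0.0952 to 0.718. FCGRT, the antibody-recycling receptor, read 11.76, 11.17 and 10.99 in TC-71 and 10.50, 10.06 and 9.60 in the lines, and all 3 lines lay below every TC-71 sample.

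Separated genes were unevenly spread over the chromosomes, a view taken after the values had been seen. On chromosome 13, 70 of 255 genes (27.5%) were separated below TC-71 and 2 (0.784%) above it. Over all genes the shares were 6.4% and 7.38%. The median level of the chromosome's genes relative to their TC-71 means was -0.0809, -0.00123 and 0.0777 in the TC-71 samples and -0.197, -0.15 and -0.249 in the 3 lines, so the lines lay below all TC-71 samples. Within array sets the medians were -0.235, -0.157 and -0.32. VPS36, a subunit of the endosomal sorting machinery, read 10.08, 9.80 and 10.12 in TC-71 and 8.89, 9.28 and 9.41 in the lines. POLR1D, a subunit of RNA polymerases I and III, read 10.98, 11.03 and 11.07 against 10.50, 10.47 and 10.59. DLEU2, a long noncoding RNA, read 7.54, 7.29 and 7.44 against 6.74, 6.89 and 6.70, with probe sets from -0.644 to -0.0675. IRS2 and SMAD9, described above, are also genes of chromosome 13.

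Chromosome 3 showed the opposite. Of 760 genes 157 (20.7%) were separated above TC-71 and 18 (2.37%) below it. The median relative to TC-71 was -0.0874, 0.0298 and 0.0607 in the TC-71 samples and 0.134, 0.149 and 0.165 in the lines, and 0.104, 0.143 and 0.123 within array sets. MAP3K13, a kinase upstream of JNK, read 9.11, 9.23 and 9.15 in TC-71 and 9.94, 10.46 and 9.97 in the lines. IGF2BP2, which binds the IGF2 messenger RNA, read 9.68, 9.54 and 9.53 against 10.18, 10.49 and 9.78. GRAMD1C, ZDHHC23, CMTM8, PLSCR4, UBE2E2, PIK3CB, ETV5 and RYK lie on this chromosome too. On chromosome 15, 75 of 456 genes (16.4%) were above TC-71 and 11 (2.41%) below it, and on chromosome 18, 29 of 188 (15.4%) and 4 (2.13%). On chromosome 18 the TC-71 samples themselves ran from -0.171 to 0.0754, and TC/AEW at 0.0951 was the nearest line.

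**Figure D4:**
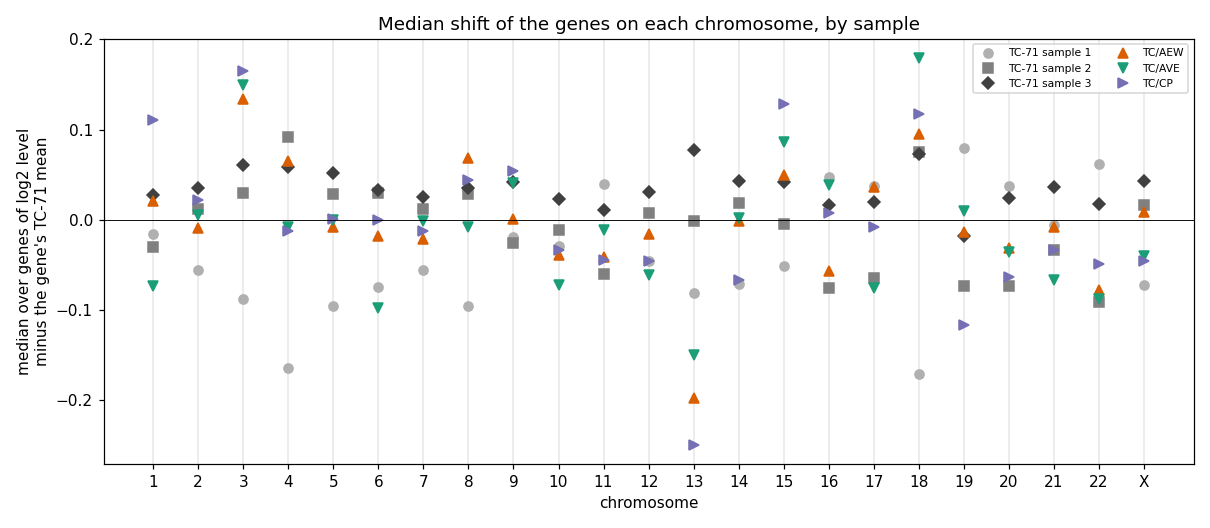
Median over the tested genes of each chromosome of the log2 level minus the gene's TC-71 mean, by sample (grey symbols TC-71, coloured triangles resistant lines; chromosome Y not shown). The lines lie below all TC-71 samples on chromosome 13 (-0.249 to -0.15) and above them on chromosome 3 (0.134 to 0.165).

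**Figure D5:**
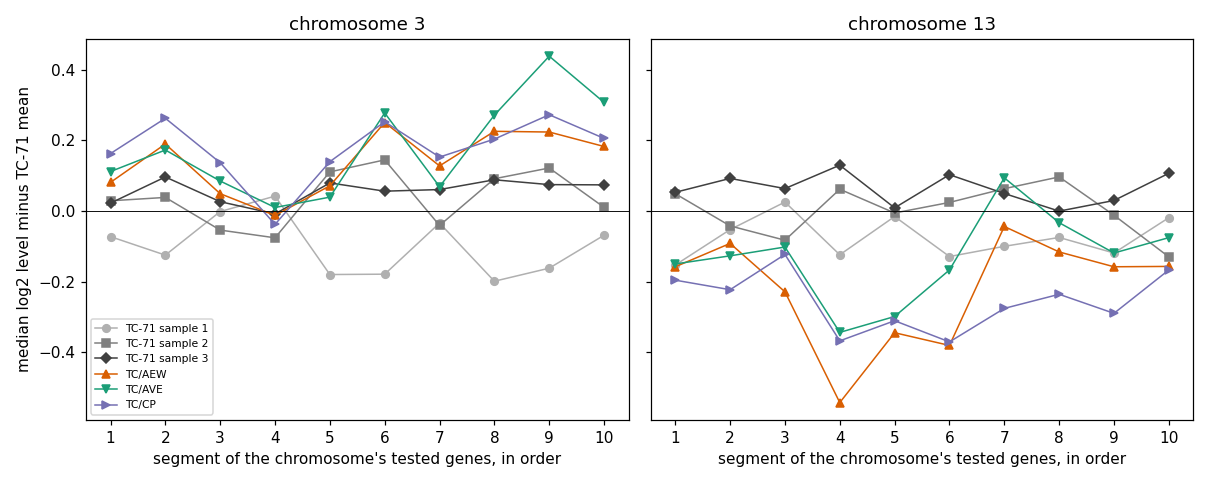
The same median in 10 consecutive segments with equal numbers of tested genes on chromosomes 3 and 13, in chromosome order, by sample. On chromosome 13 the lines are lowest in segments 4 to 6, and on chromosome 3 they rejoin TC-71 in segment 4, where the median difference is -0.034.

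The shift was not even along either chromosome. On chromosome 13 the median difference was -0.47 in segment 4 of 10 with equal numbers of tested genes (SERTM1 to AKAP11), -0.394 in segment 5 and -0.297 in segment 6, and -0.0478 in segment 7. On chromosome 3 it was 0.333 in segment 9 (TIPARP to POLR2H), 0.262 in segment 8 and 0.254 in segment 6, against -0.034 in segment 4 (QRICH1 to GLT8D1). There were 12 runs of at least 4 neighbouring tested genes separated on the same side, and 4 of them lay on chromosome 13. The longest there held EEF1AKMT1, XPO4, LATS2, SAP18 and SKA3, with a median difference of -0.335.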

How the data were processed

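Levels were the deposited log2 values from Affymetrix HG-U133 Plus 2 arrays. The authors made them with RMA from affy, according to the submitters' processing notes, and the versions are not given in the sources used here. After 62 control probe sets were left out, 54613 remained, of which 41091 carried 1 gene symbol. Probe sets with 5 or more on at least 2 of the 9 arrays were retained. A gene low in 1 group could pass through the other alone, and the counts of separated genes include such genes. Of separated genes at least 2-fold apart, 14 higher ones had a TC-71 mean under 5. For 12 lower ones the mean of the lines was under 5. The retained probe set with the highest mean stood for its gene, and _x_at probe sets were used only where there was no other. This gave 14181 genes. Both arrays of a line were averaged, and the 3 lines were compared with the 3 TC-71 samples in limma 3.58.1 (R 4.3.3), two-sided, with 4 residual and 3.06 prior degrees of freedom and Benjamini-Hochberg adjustment over all genes at a threshold of 0.05. On simulated data for this comparison over 14181 genes, limma called 80% of 50 genes changed by 1 on the log2 scale. It called 96% of 50 genes changed by 2, and also 7 unchanged genes. In the measured data 154 genes were at least 2-fold higher in the lines and 72 at least 2-fold lower, and 3 genes were called. The share of real differences of these sizes that limma finds on these arrays was not tested.

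The genes named were those past the threshold, the 20 largest rises and falls and the 10 largest moderated statistics in each direction among genes with all 6 line arrays beyond TC-71, at most 4 members of each gene list, those farthest apart, 10 genes of the IGF pathway and Ewing sarcoma, and up to 3 on each side of the border of the separation rule. Not all genes the rule names are described. Of 127 genes named, 67 had several kept probe sets, and in 8 at least 1 probe set went the other way. Separated members of the lists outside this rule, all wide-gap genes and all genes of the chromosome paragraphs were chosen after their values were seen. The members and lists were chosen with earlier results of these data known. Chromosomes and gene order came from a RefSeq table for GRCh38.p14. Genes on chromosome Y are not reported here. Alternatives tried were other filters, probe set choices and normalizations, each sample left out, array set as a block, an intensity trend and all 9 arrays with sample as a random block.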

Additional observations from a re-analysis of the deposited data

How the results depend on the processing

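The count of genes past the threshold, 3 with limma, was sensitive to nearly every choice: it was 6 with a filter at 6, 6 with the mean of a gene's probe sets, 5 with no _x_at or _s_at probe sets, 8 with arrays centred on their median, 7 with quantile normalization and 6 with an intensity trend. COL16A1, HSD17B2 and DACT2 were among the called genes in each of these. It was 0 with no filter (1428 at an unadjusted p under 0.05), 0 with array set as a block (1450), 0 without any 1 TC-71 sample and 0 without TC/AEW, TC/AVE or TC/CP, and 67 when all 9 arrays entered with sample as a random block, which estimated a correlation of 0.848 between arrays of a line. The count of separated genes, 1954, was 3032 to 4366 without 1 TC-71 sample, 3054 without TC/AEW, 3104 without TC/AVE, 3824 without TC/CP and 5915 when each line had only to lie beyond the TC-71 sample of its own array set, all of which have fewer samples to separate. Separated genes at least 2-fold apart, 177, were 148 to 332 without 1 TC-71 sample, most without sample 2. The sterol synthesis median, 0.355, was 0.312 with no _x_at or _s_at probe sets, 0.309 to 0.354 without 1 TC-71 sample, 0.291 without TC/AVE and 0.392 without TC/CP. The lipid droplet median was 0.416 with no _x_at or _s_at probe sets, against 0.194. Of 1016 comparisons of 127 genes with their alternatives, 14 changed sign, in 6 genes none of which passed the threshold. These were IDI1 (0.186), IGF1R (0.00941) and EWSR1 (-0.215) with the mean of probe sets, EWSR1 (-0.0299), IRS1 (-0.175) and IGFBP3 (0.0471) with array set as a block, IGF1R (0.0749), IGF1 (0.197) and EWSR1 (-0.0886) without TC/CP, and IGFBP3 (0.0102) without TC/AVE. Without 1 TC-71 sample EWSR1 ran from -0.0733 to 0.107, IRS1 from -0.182 to 0.431 and IGFBP3 from -0.226 to 0.0447. Besides COL16A1, HSD17B2 and DACT2, limma called PRPH and STEAP1B in each of the 6 settings with more calls and with 9 arrays. CA14 was called in 4 of the 6 and with 9 arrays. The cause of these changes was not tested. The medians of chromosomes 3, 13, 15 and 18, added after the data were seen, kept their direction under the 11 alternatives run for them. Chromosome and list medians were not recomputed with median centring, quantile normalization, an intensity trend or 9 arrays. List medians were not recomputed with the mean of probe sets either. Median centring moved the median difference over all genes from -0.00533 to -0.0557. No paired analysis was possible because the replicate numbers of a line's 2 technical arrays do not match those of the TC-71 samples. The match by array set was analysed instead, as a block and as differences within sets, and is given above.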

Other observations

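Probe sets with no gene symbol or with several were tested apart from the genes. Of 5977 such probe sets, limma called 0 after adjustment and 340 had an unadjusted p under 0.05, and 605 (10.1%) were separated. Runs of neighbouring genes separated on the same side were also found away from chromosomes 3 and 13. A run of 5 higher genes on chromosome 8 held TAF2, DSCC1, DEPTOR, MRPL13 and MTBP, with a median difference of 0.398. Runs of 4 lower genes held APRT, GALNS, TRAPPC2L and ACSF3 on chromosome 16 (-0.508) and TXN2, FOXRED2, EIF3D and IFT27 on chromosome 22 (-0.41). Over 230 segments, 10 per chromosome with equal numbers of tested genes, 33 had a median difference over 0.1 and 24 one under -0.1.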
